A study of Mus musculus with 12 samples.

Results

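The LSD1-CoREST-REST complex was followed as 10 genes, taken by symbol from the deposited table of RNA levels: Kdm1a, Rcor1, Rcor2, Rcor3, Phf21a, Hmg20b, Hdac1, Hdac2, Rest and Zfp217. All 10 were among its 24132 gene rows, and all 10 passed the filter for testing (at or above 1 RPKM in 2 or more of 6 libraries), which left 10897 genes. RPKM scales reads to the length of the gene and to the aligned reads of the library, so levels can be compared between genes. The RNA was polyadenylated RNA of fibroblasts grown from the tail tips of newborn mice, of a strain backcrossed to C57BL6. The 3 genotypes were wild type, heterozygous for the disruption of Hotair, and Hotair knockout, each with 2 libraries, and no other allele or treatment was named. Nothing in the labels says whether the 2 libraries of a genotype came from separate animals or cultures. The spread behind each p-value is therefore that of these libraries alone and may be technical.

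LSD1, the product of Kdm1a, removes methyl groups from lysine 4 of histone H3 in mono- and dimethylated form. CoREST scaffold proteins (Rcor1, Rcor2 and Rcor3) join it to the histone deacetylases Hdac1 and Hdac2 and let it act on nucleosomes, and DNA-binding proteins such as REST, the repressor of neuronal genes in other tissues, bring the complex to its sites. Hotair is a long noncoding RNA of the HoxC cluster, and human HOTAIR has been described as a scaffold that holds LSD1-CoREST at one end and Polycomb repressive complex 2 at the other.

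Promoter windows from RefSeq (GRCm38.p6, 250 bases before to 50 after an annotated start) were found for 8 of the 10 genes, 12 windows in all, and not for Rest and Hdac1. The stretches upstream of the outermost annotated start are shown for Kdm1a and the 3 CoREST genes, because these encode the catalytic subunit and its scaffolds and their RNA levels moved by different amounts. Capitals mark GC boxes, the letters GGGCGG on either strand, a sequence bound by Sp1-type factors. The genome build of these windows is not that of the RNA-seq alignment (mm9).
Kdm1a (chr4:136602788-136602973, minus strand): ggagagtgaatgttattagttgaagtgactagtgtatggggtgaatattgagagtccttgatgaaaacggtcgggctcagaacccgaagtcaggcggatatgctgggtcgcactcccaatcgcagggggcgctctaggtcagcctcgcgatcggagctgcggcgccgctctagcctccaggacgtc
Rcor1 (chr12:111039117-111039366, plus strand): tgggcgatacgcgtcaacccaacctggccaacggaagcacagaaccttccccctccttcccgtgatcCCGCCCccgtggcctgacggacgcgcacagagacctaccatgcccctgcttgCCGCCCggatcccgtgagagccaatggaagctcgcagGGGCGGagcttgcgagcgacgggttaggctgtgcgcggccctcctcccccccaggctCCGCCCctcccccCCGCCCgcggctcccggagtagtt
Rcor2 (chr19:7267144-7267393, plus strand): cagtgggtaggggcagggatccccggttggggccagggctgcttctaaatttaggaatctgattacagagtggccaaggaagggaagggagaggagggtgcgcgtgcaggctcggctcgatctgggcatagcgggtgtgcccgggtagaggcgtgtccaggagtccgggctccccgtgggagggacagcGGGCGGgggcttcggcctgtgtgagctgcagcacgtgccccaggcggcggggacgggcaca
Rcor3 (chr1:192138075-192138290, minus strand): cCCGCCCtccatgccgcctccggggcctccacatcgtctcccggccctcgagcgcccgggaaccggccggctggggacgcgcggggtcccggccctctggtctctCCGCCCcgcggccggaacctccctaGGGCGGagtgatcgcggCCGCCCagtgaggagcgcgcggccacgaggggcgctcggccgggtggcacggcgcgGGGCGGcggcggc

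Rcor1 and Rcor3 each carried 5 GC boxes in the stretch shown, Rcor2 carried 1 and Kdm1a carried 0. Over whole windows, a GC box was present in 10 of the 12 member windows, against 35.7% of 32851 windows of all genes. The 10 windows belong to 7 of the 8 genes. Those of Hmg20b overlap almost fully, so windows are not independent, and no share by gene was computed over all genes. The windows of Hmg20b held 3 or 4 boxes and those of Zfp217 held 2 or 3. A relation between GC boxes and RNA levels was not tested. GC content was 61.3% in the Kdm1a window, 69.3% in that of Rcor1, 67.3% in that of Rcor2 and 81.7% in that of Rcor3, against a median of 52.7% for all windows, and a GC-rich window holds these letters more readily. CCAAT, the letters bound by NF-Y, was present in windows of 4 of the 8 genes (Kdm1a, Rcor1, Hmg20b and Zfp217) and in 37.4% of all windows. GCATGCGC (NRF1 core), TGACGTCA (cyclic AMP response element), TTTCCCGC and TTTGGCGC (E2F) were in none of the 12 windows, and were in 2.71%, 1.79%, 1.07% and 0.514% of all windows. CCGGAAG (ETS) was found only in 1 Zfp217 window, against 8.86% of all windows. All letters were searched on both strands.

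Hotair itself was low. It stood at 0.247 and 0.183 RPKM in wild type and 0.213 and 0.172 RPKM in heterozygous cells, equal to 11.4 to 16.2 read equivalents in a library, and at 0 in both knockout libraries. With 3 reads over both knockout libraries as the limit that a count of 0 allows (0.0143 RPKM), the wild-type mean of 0.215 RPKM was at least 15-fold higher. Read equivalents take a read as 37 bases, the length that made the summed bases whole in every library; no source used here states it, and longer reads would lower these numbers in proportion and raise the limit. Libraries held about 27900000 to 33200000 aligned read equivalents in wild type and heterozygous, and about 46000000 and 48100000 in knockout. The highest fibroblast markers were abundant in every library (Vim 2147 to 2690 RPKM, Col1a1 984 to 1151 RPKM), but others differed between genotypes. Lum was at 2.31 and 2.32 RPKM in wild type and 13.4 and 13.9 in knockout. Thy1 was at 193 and 188 against 94 and 95.6. Of the 10 fibroblast markers, both knockout libraries lay above both wild-type libraries for 4 and below for 6. Those shares were 49.3% and 34.5% over the genes tested. Keratinocyte, endothelial, skeletal muscle and neuron marker lists summed to at most 3.25 RPKM per library. The highest genes of these lists were Krt10 and Krt5, Tek and Kdr, Des and Myog, and Map2 and Slc17a7, while Emcn, Myod1, Myf5 and Gad1 were listed at 0 in all libraries. Macrophage and leukocyte markers summed to 9.1 and 10.4 RPKM in wild type, 7.62 and 8.44 in heterozygous and 55.3 and 55.7 in knockout, with all 12 genes higher in both knockout libraries than in wild type (Lyz2 at 3.06 to 3.2 and 23.5 to 23.8 RPKM, Laptm5 at 2.33 to 3.9 and 11.4 to 12.3). Schwann and neural markers, led by Ngfr and Sox10, summed to 27.9 and 28, 34.2 and 35.4, and 16 and 16.7 RPKM in the same order. Sex-linked genes differed between the cell preparations. Xist was at 4.46 and 4.65 RPKM in the heterozygous libraries and at or under 0.0479 RPKM in the other 4. The Y-linked Ddx3y was at 0.133 and 0.216 RPKM in heterozygous, 1.68 and 1.8 in wild type and 2.88 and 2.86 in knockout. Y-linked Eif2s3y was at 1.85 and 1.99 RPKM in wild type and 4.95 and 5.58 in knockout. What part the Y-linked rise in knockout has in the levels of the 10 genes was not tested. Heterozygosity and the high Xist with low Y-linked genes cannot be told apart. None of the 10 genes lies on a sex chromosome in RefSeq, and the part of these sex-linked differences in their levels was not tested.

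In wild-type cells the complex was led by the deacetylase gene Hdac1. Its mean was 36.8 ± 0.826 RPKM (SD, n = 2, as for all means below), at the 88.1st percentile of the genes tested. RefSeq lists an Hdac1 pseudogene, and whether reads of the Hdac1 row are shared with it was not tested, so its level is uncertain. Hmg20b (17.1 ± 1.06), Kdm1a (16.8 ± 0.61) and Hdac2 (15.9 ± 0.0674) followed at percentiles of 73.8 to 75.3, and the libraries of Hmg20b and Kdm1a overlapped. Rcor1 (7.44 ± 0.139) and Rest (7.39 ± 0.152) stood side by side at percentiles of 54.8 and 54.5, with overlapping libraries. Zfp217, Phf21a and Rcor3 lay between 2.31 and 2.36 RPKM and could not be ordered, and Rcor2 was lowest at 1.95 RPKM in both libraries. The catalytic subunit was thus measured at a higher level than any of the 3 CoREST genes in every library.

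Below Hdac1, which ranked first throughout, the order differed between genotypes. In heterozygous cells Hdac2 (19.2 ± 0.888 RPKM) and Kdm1a (17.9 ± 0.102) lay above Hmg20b (16.6 ± 1.15), and Rcor2 (3.53 ± 0.317) lay above Phf21a, Rcor3 and Zfp217. In knockout cells Rest (10.4 ± 0.234) and Rcor1 (10.3 ± 0.319) overlapped again, and Zfp217 (2.53 ± 0.111) took the last place. Member values rested on between 100 reads (Rcor3, wild type) and 4060 reads (Hdac1, knockout).

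In knockout against wild-type cells, 8 of the 10 genes rose and 0 fell, on the log2(RPKM + 1) scale on which all differences are given, which understates the change of low genes (limma, Benjamini-Hochberg adjustment over all 10897 genes, threshold 0.05). A call by itself was common, since 67.2% of the 10897 genes had one, 40.6% higher and 26.6% lower. Both knockout libraries lay above both wild-type libraries for 8 of the 10 genes and below for Hmg20b, against 49.3% and 34.5% of the genes tested. The median difference of the 10 genes was 0.41, against 0.06 over all genes tested. The RPKM ratios of the 8 genes lay between 1.14 (Hdac1) and 1.63 (Rcor2), all under 2-fold. In bulk samples, fewer cells of a type and less RNA per cell cannot be told apart. The knockout libraries were also higher in all 12 proliferation genes measured (summed RPKM 85.8 and 88.1 in wild type, 129 in both knockout libraries), and the part of proliferation, or of the macrophage markers above, in the members' rise was not tested.

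**Figure D1:**
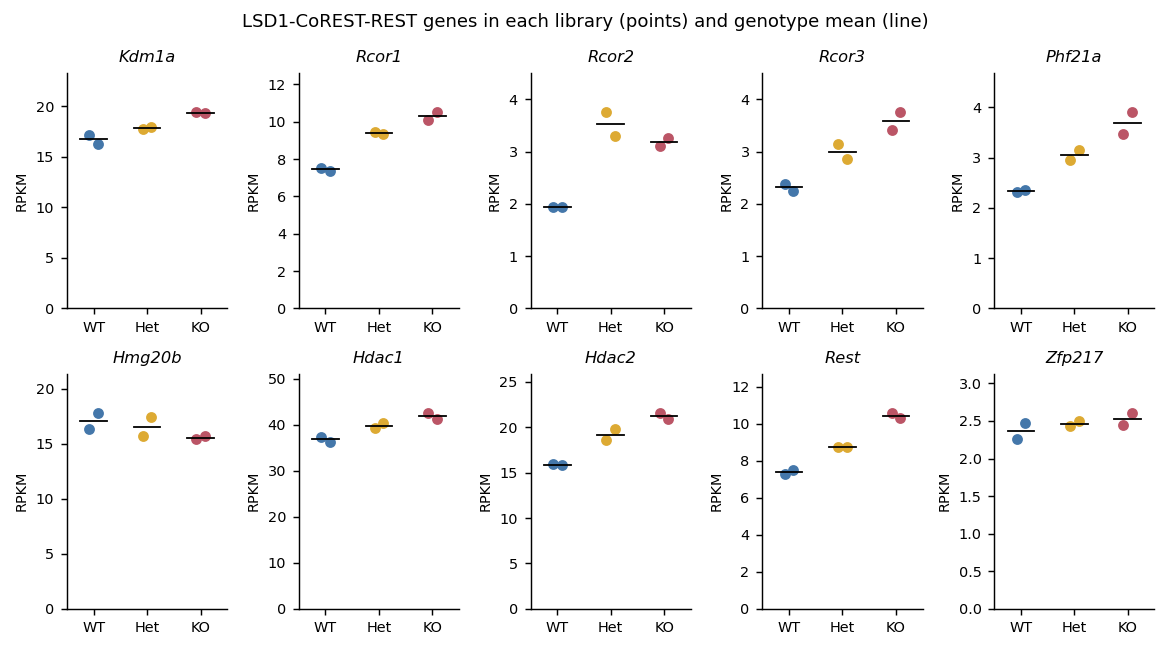
RPKM of the 10 genes in each of 6 libraries (points) with the mean of each genotype (line), 1 panel per gene with its own axis from 0. WT, Het and KO are wild type, heterozygous and knockout. Wild-type points lie below all others for 8 genes, Rcor2 is highest in heterozygous cells, and Hmg20b and Zfp217 show little separation.

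The catalytic subunit moved little. Kdm1a stood at 17.2 and 16.3 RPKM in wild type, 17.8 and 18 in heterozygous and 19.4 and 19.3 in knockout. The 3 genotypes did not overlap, with each step upward. The knockout difference was 0.20 ± 0.03 (SE, adjusted p = 0.00176), a ratio of 1.15. Its relative Kdm1b, which encodes the second flavin-dependent H3K4 demethylase and does not join CoREST, went from 0.91 ± 0.0317 RPKM in wild-type cells to 1.99 ± 0.0573 in knockout cells, a difference of 0.65 ± 0.05 (adjusted p = 3.61e-05). Kdm1b made up 5.15% of the summed RPKM of the pair in wild type and 9.33% in knockout.

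All 3 CoREST scaffold genes rose. Rcor1, the founding scaffold, stood at 7.54 and 7.35 RPKM in wild type, 9.43 and 9.32 in heterozygous and 10.1 and 10.5 in knockout, a stepwise rise with no overlap (knockout difference 0.42 ± 0.04, adjusted p = 6.21e-05). Rcor3 stood at 2.39 and 2.24, 3.15 and 2.85, and 3.41 and 3.75 RPKM (0.47 ± 0.06, adjusted p = 0.00039), again stepwise. Rcor2 departed from that order. It was at 1.95 RPKM in both wild-type libraries, 3.75 and 3.30 in heterozygous and 3.10 and 3.26 in knockout, so the heterozygous libraries were highest (knockout difference 0.50 ± 0.06, adjusted p = 0.000218). Rcor2 and Rcor3 had fewer reads behind them (100 to 304 per library) than Rcor1 (560 to 1324).

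The summed RPKM of the scaffold genes was 11.7 ± 0.241 in wild type, 15.9 ± 0.614 in heterozygous and 17.1 ± 0.676 in knockout. Rcor1 supplied 63.5% and 63.6% of it in the wild-type libraries, 57.7% and 60.2% in the heterozygous and 60.7% and 60.0% in the knockout. Rcor2 supplied 16.4% and 16.9%, 23.0% and 21.4%, and 18.7% and 18.6%. The Rcor2 share was therefore highest in heterozygous cells, with no overlap between genotypes, while the share of Rcor3 stayed between 18.4% and 21.4%. With 2 libraries a genotype, the smallest exact permutation p is 0.333, so shares are given without a test.

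**Figure D2:**
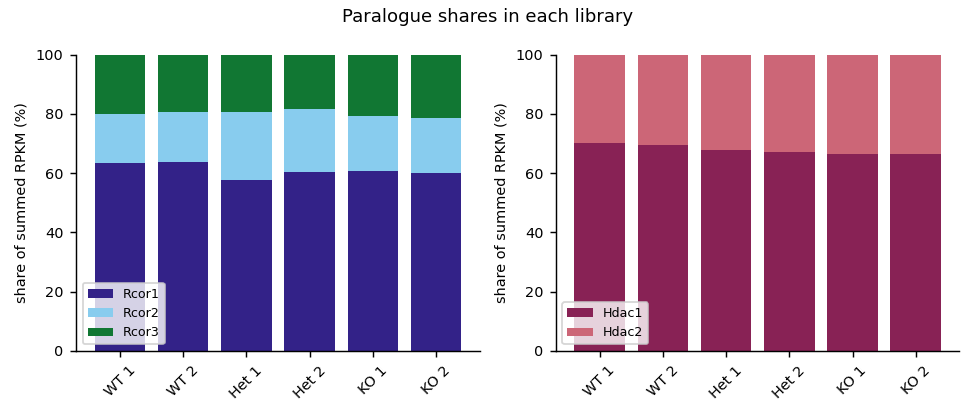
Stacked bars of the share of summed RPKM (%) in each library, for the CoREST genes Rcor1, Rcor2 and Rcor3 and for the deacetylase genes Hdac1 and Hdac2. Rcor1 stays near 60% and Hdac1 between 66.3% and 70.1%, and the Rcor2 share is largest in the heterozygous libraries.

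The deacetylase genes rose unequally. Hdac2 stood at 15.9 and 15.8 RPKM in wild type, 18.6 and 19.8 in heterozygous and 21.6 and 20.9 in knockout, with no overlap (0.40 ± 0.04, adjusted p = 8.49e-05). Hdac1 stood at 37.4 and 36.2, 39.3 and 40.3, and 42.6 and 41.2 RPKM, also in steps without overlap but with a smaller knockout difference (0.18 ± 0.03, adjusted p = 0.00125). The share of Hdac1 in the pair was 70.1% and 69.6% in wild type, 67.9% and 67.0% in heterozygous and 66.4% and 66.3% in knockout, and the genotypes did not overlap. Both enzymes also serve the Sin3, NuRD and MIER complexes.

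Of the accessory subunits, Phf21a rose and Hmg20b did not. Phf21a encodes BHC80, a reader of unmethylated histone H3 tails, and stood at 2.31 and 2.36 RPKM in wild type, 2.96 and 3.15 in heterozygous and 3.47 and 3.90 in knockout (0.49 ± 0.06, adjusted p = 0.000238). The steps did not overlap. Hmg20b, an HMG-box subunit also called BRAF35, stood at 16.3 and 17.8, 15.7 and 17.4, and 15.4 and 15.7 RPKM. Both knockout libraries lay below both wild-type libraries, but the difference of -0.13 ± 0.06 missed the threshold (adjusted p = 0.0799, 95% interval -0.26 to 0.00). Hmg20b was called lower when the first wild-type library was left out (-0.19, adjusted p = 0.0372), when the first or the second heterozygous library was left out (-0.13, adjusted p = 0.0478 and 0.0482), with only the 4 libraries compared (adjusted p = 0.048), after median scaling (-0.21, adjusted p = 0.0106) and with a replicate block (adjusted p = 0.0314), with a range of 0.0106 to 0.368 over 15 alternatives.

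Among the DNA-binding members, Rest rose and Zfp217 did not pass the test. Rest stood at 7.28 and 7.5 RPKM in wild type, 8.74 and 8.73 in heterozygous and 10.6 and 10.3 in knockout, in steps without overlap, and its knockout difference of 0.45 ± 0.04 had the smallest adjusted p of the 10 genes (3.9e-05). Zfp217, a zinc finger protein found with CoREST and CtBP, stood at 2.26 and 2.47, 2.43 and 2.5, and 2.45 and 2.61 RPKM. Its libraries overlapped between all genotypes, and the knockout difference was 0.07 with a 95% interval of -0.05 to 0.20 (adjusted p = 0.272). That interval lies below the intervals of Rest (0.36 to 0.53) and Rcor1 (0.33 to 0.51), although the difference between these genes was not tested.

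**Figure D3:**
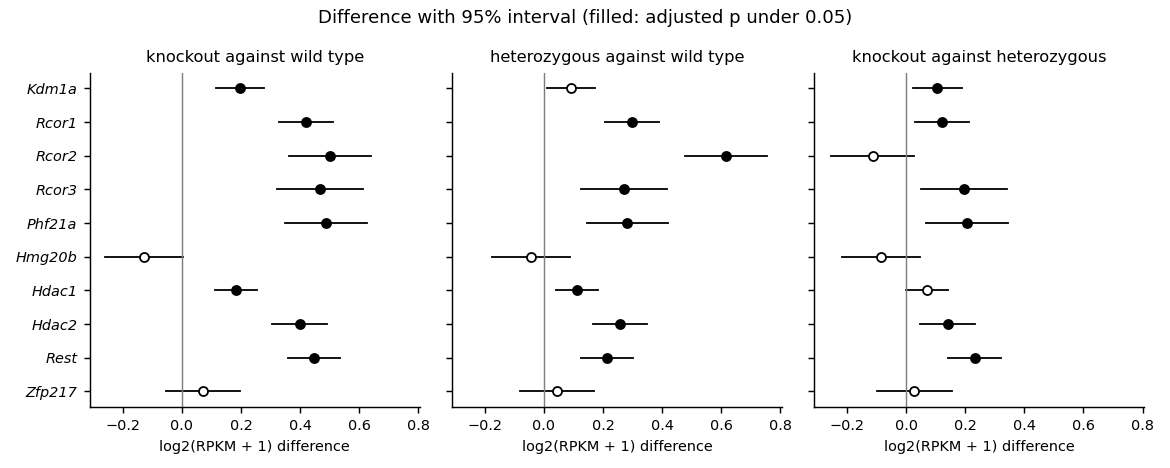
Differences on the log2(RPKM + 1) scale (horizontal axis) for each gene in the 3 comparisons, with 95% intervals from limma, not adjusted for the number of genes. Filled points have an adjusted p under 0.05: 8 genes in knockout against wild type, 7 in heterozygous against wild type and 6 in knockout against heterozygous, all to the right of 0.

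In heterozygous against wild-type cells, 7 of the 10 genes rose and 0 fell, when 52.6% of the genes tested were called, 35.5% higher and 17.1% lower. Both heterozygous libraries were above both wild-type ones for 8 of the 10 genes and below for 0, against backgrounds of 50.4% and 25.6%. The median difference of the 10 was 0.24, against 0.07 over all genes. This comparison shares its wild-type libraries with the one above. Rcor2 rose most (0.61 ± 0.06, adjusted p = 0.000172, a ratio of 1.81), followed by Rcor1 (0.30 ± 0.04, adjusted p = 0.000716) and Phf21a (0.28 ± 0.06, adjusted p = 0.00587). Rcor3, Hdac2 and Rest lay between 0.21 and 0.27. Hdac1 rose by 0.11 ± 0.03 (adjusted p = 0.0186), a call lost without the second wild-type library (adjusted p = 0.0916), without the second heterozygous library (0.0847) and after median scaling (0.339). Rcor3 and Phf21a were not called after quantile normalization (adjusted p = 0.14 and 0.0908). Kdm1a was higher in both heterozygous libraries, but its difference of 0.09 ± 0.03 was not called (adjusted p = 0.0622; 0.0357 without the first wild-type library). In these libraries the summed macrophage markers lay below those of wild type, with Lyz2 at 1.33 and 1.13 RPKM against 3.2 and 3.06. The list was mixed. Of the 7 markers tested, 2 were called higher and 1 lower. Of all 12, which include markers below the filter, libraries did not overlap for 2 that were higher and 5 that were lower. The proliferation genes summed to 107 RPKM in both heterozygous libraries, with 8 of 12 called higher. The part of either in these differences was not tested.

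In knockout against heterozygous cells, 6 of the 10 genes rose and 0 fell, when 51.8% of the genes tested were called, 26.4% higher and 25.4% lower. Libraries did not overlap for 7 genes that were higher in knockout and for Rcor2 and Hmg20b, which were lower, against backgrounds of 39.2% and 38.6%. The median difference of the 10 was 0.11, against 0.00 over all genes. Rest had the largest difference (0.23 ± 0.04, adjusted p = 0.00192), followed by Phf21a (0.21 ± 0.06, adjusted p = 0.0216), Rcor3 (0.20 ± 0.06, adjusted p = 0.0315), Hdac2 (0.14 ± 0.04, adjusted p = 0.0201), Rcor1 (0.12 ± 0.04, adjusted p = 0.0327) and Kdm1a (0.11 ± 0.03, adjusted p = 0.0376). These calls were near the limit of the design. The count was 2 without the first heterozygous library, 4 without the second (3 higher, and Rcor2 lower), 3 without the first knockout library and 2 without the second, and Rest was called in each of these fits. In the same comparison both knockout libraries lay above both heterozygous ones for all 12 macrophage and leukocyte markers and all 12 proliferation genes. They lay below for 7 of 8 Schwann and neural markers. Whole lists are counted, because some of these genes passed the filter only through the group where they were high. The difference in Xist and Y-linked genes falls here too. The part of the markers was not tested. Rcor2 was lower in both knockout libraries than in both heterozygous ones (-0.11 ± 0.06, adjusted p = 0.147), and this was called without the second heterozygous library (-0.18, adjusted p = 0.0472) and after quantile normalization (-0.18, adjusted p = 0.0387).

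A rise in steps from wild type through heterozygous to knockout, with no overlap of libraries, was present in 7 of the 10 genes (Kdm1a, Rcor1, Rcor3, Rest, Hdac1, Hdac2 and Phf21a) and in 22.7% of all genes tested. All-gene differences depended on level, which bears on how the members are read. In knockout against wild type, genes with a mean under 3 RPKM had a median difference of 0.23, those between 3 and 10 RPKM 0.07, those between 10 and 30 RPKM -0.03 and those between 30 and 100 RPKM -0.11. Rcor2 (0.50) and Rcor3 (0.47) lay above the median of the lowest band and Zfp217 (0.07) below it. Rcor1, Rest and Phf21a (0.42 to 0.49) lay above that of the second band. Kdm1a (0.20) and Hdac2 (0.40) were above the median of their band and Hmg20b (-0.13) below it, while Hdac1 (0.18) was above that of the fourth. Of all calls 60.4% were higher, against 46.7% after quantile normalization, 47.2% after median scaling and 48.2% with a filter at 5 RPKM. The count of members called higher was 8 after quantile normalization and after median scaling, but sizes depended on scaling. The median difference of the 10 genes was 0.41 without scaling, 0.28 after quantile normalization and 0.33 after median scaling. Over all genes tested it was 0.06, -0.02 and -0.02 in the same order. For heterozygous against wild type the share of higher calls was 67.5%, against 51.1% and 45.5% after those 2 scalings, with 5 and 6 members called higher.

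By Euclidean distance between centred log2 values over the 6 libraries, the genes most like Kdm1a were Atf4 (0.0306), Phf2 (0.0324), Arih1 (0.0357), Slc25a40 (0.0359) and Ccdc38 (0.0365). Hdac1 was the nearest other member (0.0483, the 21st gene in order). The genes most like Rest were Rpl39 (0.0232), Pak1 (0.0339), Chd6 (0.0348), Aamdc (0.036) and Ppp1cb (0.0383), with Hdac2 as the nearest member (0.115, the 263rd). These distances describe 6 libraries of 3 genotypes only.

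Partners of the complex outside the 10 genes were read from wider lists. Of 14 further subunits and REST partners, 13 passed the filter, and 8 of these were called higher and 1 lower in knockout against wild type (median 0.17), against 40.6% and 26.6% of the genes tested. The zinc finger subunit gene Zmym2 stood at 1.87 and 1.76 RPKM in wild type, 2.54 and 2.67 in heterozygous and 3.67 and 3.68 in knockout (0.73 ± 0.05, adjusted p = 1.17e-05). Gse1 (0.43 ± 0.06), Zmym3 (0.37 ± 0.05) and Rreb1 (0.23 ± 0.05) rose as well, but quantile normalization removed the call of Rreb1 (adjusted p = 0.946), and under it 5 of the 13 genes were called higher and 2 lower. Cdyl, a chromodomain corepressor that links REST to H3K9 methyltransferases, fell (-0.27 ± 0.05, adjusted p = 0.00274). In heterozygous against wild type 9 of the 13 were called higher and 0 lower (35.5% and 17.1% of the genes tested), and in knockout against heterozygous 3 higher and 2 lower (26.4% and 25.4%). Kdm5c, an H3K4 demethylase found with REST and carried on the X chromosome, is named outside the rule after its values were seen: it stood at 12.3 ± 0.22 RPKM in wild type, 18.8 ± 0.0115 in heterozygous and 11.8 ± 0.365 in knockout, in the libraries where Xist was high.

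Of 9 genes for DNA-binding recruiters and CtBP, 6 passed the filter, and 4 were called higher and 0 lower in knockout against wild type (median 0.38), against 40.6% and 26.6% of the genes tested. Snai1 and Zeb1, zinc finger repressors of epithelial genes that bind LSD1 or CtBP, had the largest differences: Snai1 stood at 33.9 and 34.7 RPKM in wild type and 59.6 and 59.8 in knockout (0.78 ± 0.04, adjusted p = 2.58e-06), and Zeb1 at 6.61 and 6.54 against 12.8 and 12.6 (0.86 ± 0.04, adjusted p = 1.41e-06). Snai2 (0.36 ± 0.04) and Zeb2 (0.40 ± 0.04) rose too. The corepressor genes Ctbp1 (-0.06, adjusted p = 0.073) and Ctbp2 (-0.06, adjusted p = 0.183) did not pass the test, and both were called lower after median scaling. In heterozygous against wild type 4 of the 6 were called higher and 0 lower, against 35.5% and 17.1%, and in knockout against heterozygous 3 higher and 1 lower, against 26.4% and 25.4%. Insm1 was listed at 0 in every library, and Gfi1 and Gfi1b at 0 in the wild-type and heterozygous ones.

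Of 26 genes of the other complexes that use class I deacetylases, all passed the filter, with 11 called higher, 9 lower and 6 not called in knockout against wild type, and a median of 0.04. These shares were near those of the genes tested (40.6% and 26.6%), so the counts set the list apart in neither direction. After quantile normalization the counts were 12 and 6 (median 0.10), and after median scaling 10 and 11 (median -0.04). Rises were led by the nuclear receptor corepressor gene Ncor1 (4.53 ± 0.216 to 7.93 ± 0.187 RPKM, 0.69 ± 0.05, adjusted p = 1.42e-05), Sap30 (0.56 ± 0.09) and Sin3a (0.42 ± 0.05) of the Sin3 complex, Mier1 (0.53 ± 0.05) and Mier3 (0.47 ± 0.07), and Tbl1xr1 (0.50 ± 0.05). Falls were smaller and included Suds3 (-0.26 ± 0.06), Mier2 (-0.24 ± 0.04), Hdac3 (-0.24 ± 0.05), Mta2 (-0.18 ± 0.04) and Mta3 (-0.17 ± 0.04) of the NuRD complex, and Sin3b (-0.18 ± 0.05). Heterozygous against wild type gave 9 higher and 3 lower (background 35.5% and 17.1%), and knockout against heterozygous 8 higher and 5 lower (26.4% and 25.4%). Hdac3, the deacetylase of the Ncor complexes, therefore moved opposite to Hdac1 and Hdac2, with 26.4 ± 0.66 RPKM in wild-type and 22.2 ± 1.57 RPKM in knockout cells.

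**Figure D4:**
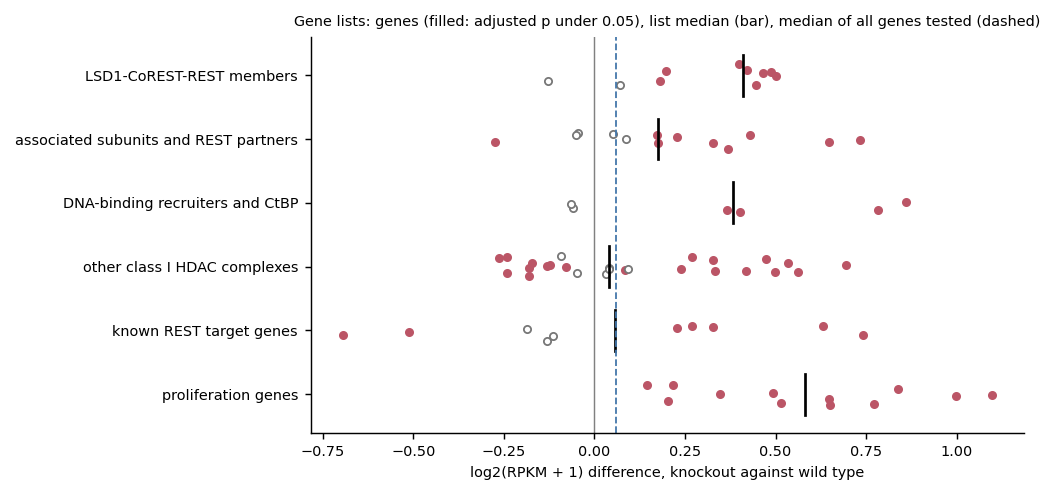
Difference between knockout and wild type on the log2(RPKM + 1) scale (horizontal axis) for each tested gene of 6 lists (vertical position within a list is arbitrary). Filled points have an adjusted p under 0.05, bars are list medians (0.41 for the LSD1-CoREST-REST genes, 0.04 for other class I HDAC complexes) and the dashed line is the median of all genes tested (0.06).

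Known targets of REST were mostly low in these fibroblasts, in all genotypes. Of 40 neuronal or excitable-cell genes listed, 29 were under 1 RPKM in every library and 24 under 0.2 RPKM, and 10 passed the filter. REST binds the RE1 element, whose letters were searched in promoter windows as a left half-site CAGCACC followed within 12 bases by a right half-site GGACAG. The spacing was chosen after matches had been seen, so the counts are a description only: a pair was found in 2 of 31 target windows (24 targets), in 37 of all 32851 windows and in none of the 12 windows of the complex's own genes. The 2 target pairs are shown with the half-sites in capitals (GRCm38.p6), because no other target window held both half-sites in this order within 12 bases. Their gaps were 0 bases (Scg2) and 8 bases (Unc13a), and wider gaps were not searched.
Scg2 (chr1:79440024-79440042, plus strand): tttCAGCACCGGACAGctc
Unc13a (chr8:71671726-71671752, plus strand): cttCAGCACCgggggcgcGGACAGcgc

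The Scg2 pair ends at the annotated start, which only its printed flank crosses, and the Unc13a pair lies just after its start. Scg2, which encodes a secretory granule protein, stood between 0 and 0.0645 RPKM and Unc13a, which primes synaptic vesicles, between 0.158 and 0.242 RPKM, with overlapping genotypes. A match of letters shows neither binding nor regulation, and other elements outside these windows were not searched.

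Of the 10 targets that passed the filter, 5 were called higher, 2 lower and 3 not called in knockout against wild type (median 0.06, as over all genes), near the 40.6% and 26.6% of the genes tested. Among the 30 below the filter, libraries did not overlap for 3 that were higher and 9 that were lower in knockout. The share over all genes below the filter was not computed, and 24 of the targets were under 0.2 RPKM in every library. No direction is read from these counts. With no filter on low values, 6 of 37 targets were called higher and 4 lower, with a median of -0.02. Over all 18888 genes of that fit, 5414 were called higher and 2940 lower, with a median of 0.02. The counts over the 10 depended on scaling: 2 were called higher and 5 lower after quantile normalization, and 5 each way after median scaling. Kcnn4, a calcium-activated potassium channel, stood at 1.37 and 1.43 RPKM in wild type, 2.32 and 2.66 in heterozygous and 2.89 and 3.13 in knockout (0.74 ± 0.06, adjusted p = 4.16e-05). Vgf, a neuropeptide precursor, was near 2.2 RPKM in wild type and heterozygous and at 3.67 and 4.24 in knockout (0.63 ± 0.07, adjusted p = 0.000117). Bdnf, a neurotrophin (0.33 ± 0.06), L1cam, a neural adhesion molecule (0.27 ± 0.06), and Mapk8ip1, a scaffold of JNK signalling (0.23 ± 0.05), rose by less, and none of these 3 was called after quantile normalization (adjusted p = 0.0711, 0.398 and 0.205).

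The neuronal tubulin gene Tubb3, at 36.3 and 37.5 RPKM in wild type, was the target with the highest level. It stood at 28.9 and 27.8 in heterozygous and 21.9 and 22.9 in knockout, falling in steps without overlap (-0.69 ± 0.04, adjusted p = 3.75e-06). Syn1, a synaptic vesicle protein gene on the X chromosome, fell from 2.41 and 2.48 to 1.34 and 1.5 RPKM (-0.51 ± 0.06, adjusted p = 0.000276). In the same libraries 4 of the 5 Schwann and neural markers tested were called lower in knockout, against 26.6% of the genes tested. Of all 8 in that list, which include markers below the filter, libraries did not overlap for 5 that were lower and 2 that were higher. Those shares were 34.5% and 49.3% over the genes tested. The 8 neuron markers summed to 0.916 and 0.768 RPKM in wild type and to more in knockout (1.87 and 1.89). Map2, the 1 neuron marker tested, reached 1 RPKM in the knockout libraries only (1.51 and 1.49, against 0.799 and 0.625 in wild type). It passed the filter through the group where it was high, so its call is not used. In heterozygous against wild type, libraries of the 8 Schwann and neural markers did not overlap for 6 that were higher and 0 that were lower. Those shares were 50.4% and 25.6% over the genes tested. The whole list is counted, because not every tested marker reached 1 RPKM outside the heterozygous libraries. Tubb3 was called lower in this comparison (-0.37 ± 0.04, adjusted p = 0.000168). The part of cells with these markers in the fall of Tubb3 was not tested. L1cam, also X-linked, was highest in heterozygous cells (4.30 and 4.17 RPKM, against 2.12 and 2.30 in wild type and 2.68 and 3.07 in knockout). Of the 10 targets, 4 were called higher and 2 lower in heterozygous against wild type (35.5% and 17.1% of the genes tested), and 2 higher and 4 lower in knockout against heterozygous (26.4% and 25.4%).

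**Figure D5:**
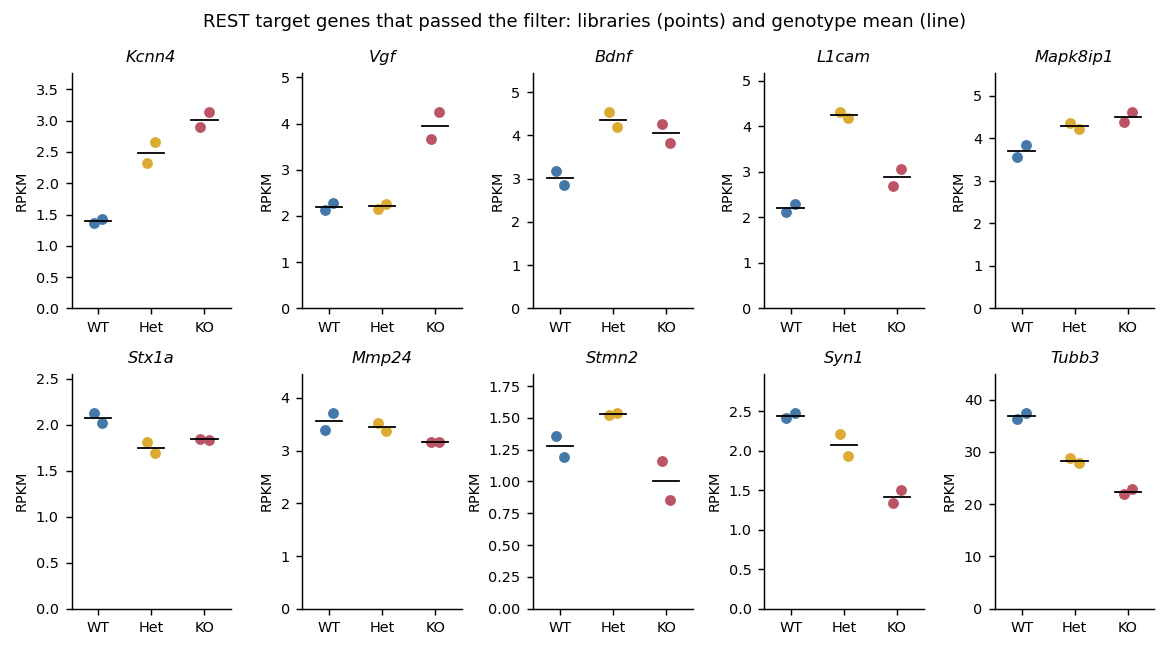
RPKM of the 10 known REST target genes that passed the filter, in each library (points) with genotype means (lines), ordered by the difference between knockout and wild type, each panel with its own axis from 0. Kcnn4, Vgf, Bdnf, L1cam and Mapk8ip1 were called higher in knockout, Syn1 and Tubb3 lower, and Stx1a, Mmp24 and Stmn2 were not called.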

How the data were processed

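RNA-seq of 6 libraries was analysed; the 6 ChIP-seq samples are not analysed here. Libraries were made from poly(A) RNA by the dUTP method, which marks strand, per the labels' protocols. TopHat and the mm9 build are named in the submitters' processing notes. The deposited values are 1 RPKM value per gene symbol and library, made from coverage tracks per the file headers. The unit was read from the values, since reciprocals of low values are whole multiples of 1 step per library, and these steps gave the depths. Gene lengths that made aligned bases whole gave the reads behind a value. Reads may be shared between overlapping genes, since the counter, its strand setting and the annotation are unstated (not given in the sources used here). Depth rose from wild type through heterozygous to knockout with no overlap of libraries, and its part in the differences was not tested.

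Genes that reached 1 RPKM in 2 libraries were fitted on log2(RPKM + 1) with limma 3.58.1 in R 4.3.3 (3 group means, two-sided, with an intensity trend and 3 residual degrees of freedom, Benjamini-Hochberg over all 10897 genes, threshold 0.05). The fit was tested on simulated data. The members and lists were chosen with earlier results of these data known. Named were all members, Hotair, up to 6 rises and 6 falls per list in knockout against wild type with no overlap of libraries, the 2 highest genes of each marker list and the 5 genes most like Kdm1a and Rest. Genes named outside this rule (Kdm5c, Xist, Ddx3y, Eif2s3y, Lum, Thy1, Ctbp1, Ctbp2, Insm1, Gfi1, Gfi1b, Scg2, Unc13a, Stx1a, Mmp24, Stmn2, Emcn, Myod1, Myf5, Gad1) were chosen after their values were seen. Some genes the rule names are not reported here. Alternatives changed the pseudocount, filter, scaling, trend, libraries fitted and replicate block.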

Additional observations from a re-analysis of the deposited data

How the results depend on the processing

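The 8 genes called higher in knockout against wild type were each called in every alternative in which they were tested. With a filter at 5 RPKM, which leaves 6 of the 10 genes, 5 were called in knockout against wild type and 4 in heterozygous against wild type, and 4754 of all genes were called against 7324. Leaving out 1 library gave 8 to 9 members called in knockout against wild type. The same gave 6 to 8 for the heterozygous and wild-type pair, and 2 to 6 for the knockout and heterozygous pair. A fit with 1 library in a group assumes that it varies like the others.

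Zfp217, never called, turned to -0.14 (quantile normalization) and -0.0081 (median scaling) in knockout against wild type. In heterozygous against wild type it turned to -0.10 and -0.032 under the same scalings and lay between -0.0014 and 0.088 with 1 library left out. In knockout against heterozygous it turned to -0.042 (quantile normalization) and to -0.0038 (without the second knockout library). Hmg20b in heterozygous against wild type lay between -0.11 and 0.024 with 1 library left out. Rreb1 turned to -0.0039 after quantile normalization. Sin3b was not called without the first knockout library (adjusted p = 0.0501). Alternatives for the other gene lists were chosen after seeing the data. The cause was not tested.

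Library numbers did not pair the samples: deviations from group means of same-numbered libraries correlated at -0.09, -0.06 and 0.06 over 10897 genes, and the labels give no shared batch. With the number as a replicate block, 9, 7 and 4 members were called in the 3 comparisons, against 8, 7 and 6, and 7253 of all genes in knockout against wild type.

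Rcor2 and Rcor3 rest on the fewest reads, so small differences between their genotypes are the least precise.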
